A study of Mus musculus with 6 samples.

Results

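Toll-like receptors, the co-receptor Cd14 and the adaptor Myd88 were followed in mouse hippocampus after cerebral ischemia/reperfusion (I/R). The group held 10 named genes, Tlr1, Tlr2, Tlr3, Tlr4, Tlr6, Tlr7, Tlr9, Tlr13, Cd14 and Myd88, out of 41386 genes in the count table. Each was found by its name and matched a single row. Gene expression was measured by RNA-seq of bulk tissue in 3 I/R libraries and 3 sham libraries. All mice were wild type males at 56 days of age, of the strain given as C57BL/6 in the labels and as C57BL/6J in the study's methods. In the I/R group a filament closed the left middle cerebral artery during 1.5 h of ischemia, reperfusion lasted 24 h, and the sham group had the operation alone. Each library pooled hippocampi of several mice, taken from the operated side, so the spread between libraries is one between pools. The total count per library was between 37493042 and 44788547.

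Toll-like receptors are pattern receptors of the innate immune system. Some sit on the cell surface and bind microbial lipids, lipoproteins or molecules set free by damaged tissue, and others sit in endosomes and bind nucleic acids. In the brain they are found mainly on microglia and on macrophages of the brain's borders, although astrocytes, neurons and endothelium also carry some of them. Most signal through Myd88 to the NF-κB and AP-1 transcription factors, whereas Tlr3 signals through the adaptor Ticam1.

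Of the 10 genes, 8 rose after I/R, 0 fell and 2 (Tlr3 and Tlr9) did not pass the test. The calls rest on the quasi-likelihood test of edgeR, adjusted over 18569 genes by Benjamini-Hochberg, and ask for an adjusted p below 0.05 together with a change above 1.2-fold. Among all genes tested, 21.8% were called higher and 19.9% lower. In the same 8 genes every I/R library lay above every sham library, which was the case in 29.3% of all genes tested. The median log2 fold change was 2.27 for the 10 genes and 0.03 for all genes tested. With scaling by library size only, the median of all genes was 0.28, so the fold changes below are relative to the scaling. Among the 8 genes that rose, the log2 fold changes ran from 1.92 for Tlr7 to 5.13 for Cd14.

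**Figure D1:**
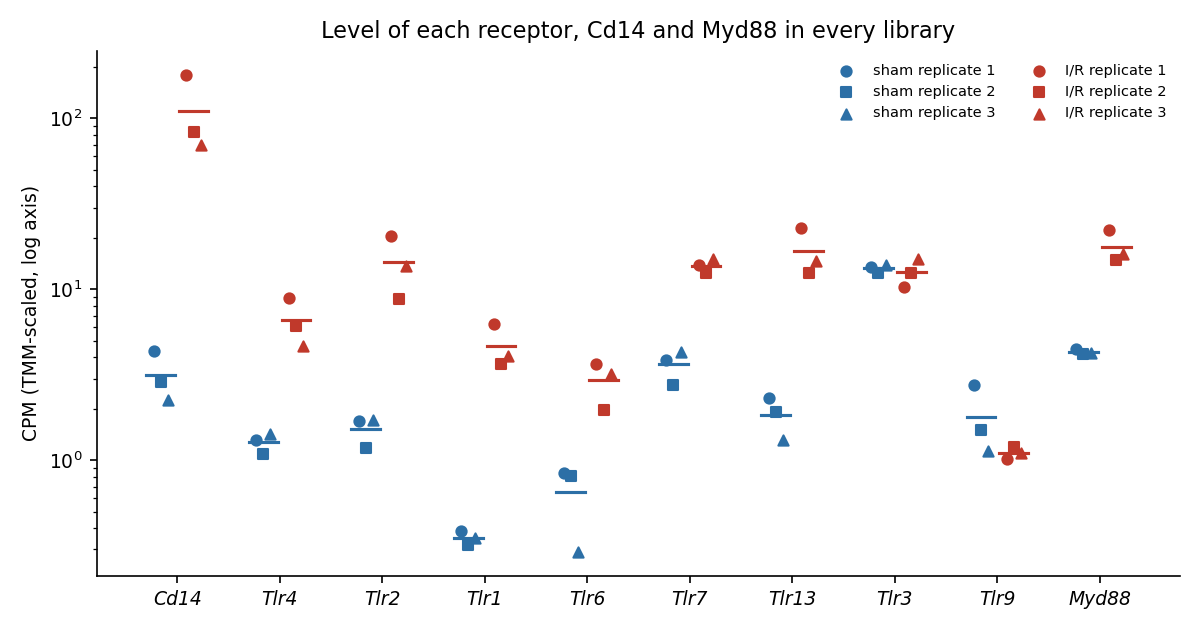
Each point is the level of a gene in a library, in CPM (counts scaled to the TMM-adjusted library size) on a log axis, with a short line at the mean of 3 libraries, for I/R in red and sham in blue. The I/R points lie above the sham points for 8 genes, whereas Tlr3 and Tlr9 overlap between the groups.

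Libraries of a group differed in makeup. Marker genes of hippocampal neurons summed to 360 to 737 CPM in I/R and 1241 to 1294 CPM in sham, and 7 of the 10 markers fell and 0 rose. Marker genes of choroid plexus, a tissue beside the hippocampus, summed to 35.8 CPM in I/R replicate 3 and 39.0 CPM in sham replicate 1, against 1602 to 4441 CPM in the other 4 libraries. With the choroid plexus sum as a covariate, a setting chosen after seeing the data, the count of called genes among the 10 was again 8. I/R replicate 1 had the highest CPM of the I/R libraries in 7 of the 8 genes that rose, Tlr7 being the exception. It also had the lowest sum of hippocampal neuron markers, at 360 CPM.

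The surface receptors for lipids came first. Cd14 holds lipopolysaccharide and other lipids at the membrane and passes them to Tlr4 and Tlr2. Sham replicates 1, 2 and 3 held 171, 116 and 77 reads, and the I/R replicates, in the same order as in all that follows, 8213, 3311 and 2804. Every I/R library exceeded every sham library more than 10 times over, and I/R replicate 1 stood well above the other I/R libraries. Levels came to 3.16 ± 1.10 CPM in sham and 111 ± 60.4 CPM after I/R (mean ± SD, n = 3 each). Cd14 rose by 5.13 ± 0.44 on the log2 scale (SE, edgeR adjusted p = 0.000347), and by 4.59 without I/R replicate 1. In 123 of the 18569 genes tested the log2 fold change was larger. The gene lies on chromosome 18 from 33948574 to 33950240 of the BALB/cJ assembly, the strain whose annotation the count table used.

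Tlr4 is the receptor for lipopolysaccharide and is also reached by proteins released from damaged cells. Sham libraries held 51, 44 and 49 reads and I/R libraries 407, 245 and 185. The sham libraries lay close together, and the lowest I/R library was well above them. Levels came to 1.27 ± 0.173 CPM in sham and 6.57 ± 2.19 CPM after I/R (mean ± SD, n = 3 each). Tlr4 rose by 2.37 ± 0.29 on the log2 scale (SE, edgeR adjusted p = 0.000965). The gene spans 63770131 to 63868385 on chromosome 4 (BALB/cJ assembly), the longest locus of the 10.

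Tlr2 recognises bacterial lipoproteins in pairs with Tlr1 or Tlr6. Sham libraries held 66, 48 and 59 reads and I/R libraries 938, 352 and 545. All I/R libraries were above all sham libraries, with I/R replicate 2 the lowest of the I/R group. Levels came to 1.53 ± 0.301 CPM in sham and 14.3 ± 5.93 CPM after I/R (mean ± SD, n = 3 each). Tlr2 rose by 3.23 ± 0.34 on the log2 scale (SE, edgeR adjusted p = 0.000633). The gene lies on chromosome 3 from 81017435 to 81022930 (BALB/cJ assembly).

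Tlr1, the partner of Tlr2 for triacylated lipoproteins, was scarce in sham. Sham libraries held 15, 13 and 12 reads and I/R libraries 285, 146 and 163. The groups were far apart, and the sham libraries differed by few reads. Levels came to 0.351 ± 0.0322 CPM in sham and 4.66 ± 1.40 CPM after I/R (mean ± SD, n = 3 each). The change of 3.72 ± 0.31 on the log2 scale (SE, edgeR adjusted p = 0.000331) was the largest of the Toll-like receptors listed.

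Tlr6, the partner of Tlr2 for diacylated lipoproteins, had 33, 33 and 10 reads in sham against 167, 79 and 128 after I/R. All I/R libraries were higher, and sham replicate 3 lay below the other sham libraries. Levels came to 0.649 ± 0.311 CPM in sham and 2.95 ± 0.874 CPM after I/R (mean ± SD, n = 3 each). Tlr6 rose by 2.17 ± 0.43 on the log2 scale (SE, edgeR adjusted p = 0.00571), the highest adjusted p of the 8 genes that rose. Tlr1 and Tlr6 are neighbours on chromosome 5, from 62824642 to 62833138 and from 62850572 to 62859610 (BALB/cJ assembly). Of the 50-base stretches in their GENCODE M21 transcripts, 13.6% of those of Tlr1 and 12.3% of those of Tlr6 occur in both genes, and 15.4% of those of Tlr1 occur in any other gene, Tlr6 included. Reads that lie within such stretches fit more than 1 gene, so both counts are uncertain. How many reads this touched was not measured.

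The receptors of endosomes bind nucleic acids. Tlr7, which binds single-stranded RNA, had 150, 112 and 148 reads in sham against 628, 501 and 599 after I/R. Both groups were tight and did not overlap, and Tlr7 alone of the genes that rose was not highest in I/R replicate 1. Levels came to 3.63 ± 0.794 CPM in sham and 13.8 ± 1.22 CPM after I/R (mean ± SD, n = 3 each). Tlr7 rose by 1.92 ± 0.19 on the log2 scale (SE, edgeR adjusted p = 0.000547).

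Tlr13, the mouse receptor for bacterial ribosomal RNA, had 90, 78 and 45 reads in sham against 1039, 501 and 586 after I/R. All I/R libraries were far above all sham libraries, with I/R replicate 1 the highest. Levels came to 1.84 ± 0.503 CPM in sham and 16.7 ± 5.44 CPM after I/R (mean ± SD, n = 3 each). Tlr13 rose by 3.17 ± 0.30 on the log2 scale (SE, edgeR adjusted p = 0.000437). Tlr7 and Tlr13 are both on chromosome X, from 162566747 to 162592346 and from 101539658 to 101557911 (BALB/cJ assembly).

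Tlr3, the receptor for double-stranded RNA, had 530, 503 and 480 reads in sham against 469, 500 and 603 after I/R. The groups overlapped, and I/R replicates 1 and 3 were the lowest and the highest of all 6 libraries in CPM. Levels came to 13.3 ± 0.822 CPM in sham and 12.6 ± 2.39 CPM after I/R (mean ± SD, n = 3 each). The log2 difference was -0.08 ± 0.16 (SE, edgeR adjusted p = 0.733). The gene lies on chromosome 8 from 42904670 to 42919778 (BALB/cJ assembly). The sign of the difference turned with the scaling, and it was 0.17 with library size only. A difference of the size seen in the receptors that rose would have exceeded this error.

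Tlr9, the receptor for unmethylated CpG DNA, had 107, 61 and 39 reads in sham against 46, 48 and 44 after I/R. The I/R libraries were nearly equal, while sham replicate 1 stood above the rest and sham replicate 3 fell among the I/R values in CPM. Levels came to 1.79 ± 0.842 CPM in sham and 1.10 ± 0.0951 CPM after I/R (mean ± SD, n = 3 each). The log2 difference was -0.70 ± 0.37 (SE, edgeR adjusted p = 0.163), and -0.27 without sham replicate 1. That library was also one of the pair with little choroid plexus RNA, and the part of choroid plexus in the Tlr9 value was not tested beyond the covariate fit, in which the log2 fold change was -0.65. The gene lies on chromosome 9 from 103800380 to 103804664 (BALB/cJ assembly).

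Myd88, the cytoplasmic adaptor that most of these receptors share, had 175, 170 and 146 reads in sham against 1018, 595 and 643 after I/R. The sham libraries agreed closely and all lay below the I/R libraries. Levels came to 4.30 ± 0.158 CPM in sham and 17.8 ± 4.02 CPM after I/R (mean ± SD, n = 3 each). Myd88 rose by 2.05 ± 0.18 on the log2 scale (SE, edgeR adjusted p = 0.000375). The gene lies on chromosome 9 from 117432297 to 117437768 (BALB/cJ assembly). It overlaps Slc22a14 on the same strand, with 58 counts over all libraries, and an unnamed gene on the other strand with 9972 counts. Whether the counting used strand is not stated in the sources used here, so reads of Myd88 and of the unnamed gene may not be separated.

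For the receptors and Myd88, the sequence before the gene start was searched for motifs of factors that act in this pathway. RefSeq's promoter table (GRCm38.p6) held entries for 7 of the 10 genes and none for Tlr4, Tlr7 and Cd14. The 250 bases before each start were searched on both strands for a kappa B consensus (the NF-κB site), the AP-1 site TGANTCA, the PU.1 core GAGGAA, the STAT site TTCNNNGAA and the core of the interferon-stimulated response element (ISRE). These were present in 7.25%, 6.75%, 23.3%, 7.02% and 2.98% of all 32851 promoters of the same length. Among the 7 genes, the kappa B consensus was found in Tlr2 and Tlr3, the PU.1 core in Tlr1, Tlr9 and Tlr13, the STAT site in Tlr1 and Myd88, the ISRE core in Tlr6 and Myd88, and the AP-1 site in Tlr9. The 7 genes had 9 entries, the extra ones being of Tlr1 and Tlr6, whereas the shares are per promoter. The PU.1 and STAT matches of Tlr1 lay in different entries, and another entry of Tlr6 held no match. Tlr3 and Tlr9, which were not called, thus held matches too.

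The upstream sequences of 3 genes that rose and of Tlr9, which did not pass the test, are shown to set their motifs side by side. Each reads 5′ to 3′ on the gene's strand, begins 250 bases before the start and ends at the start or where an annotated transcript begins, and capitals mark the motif matches. They are chr3:83841768-83841858 on the minus strand for Tlr2, chrX:106143025-106143203 on the plus strand for Tlr13, chr9:119340019-119340268 on the minus strand for Myd88 and chr9:106222348-106222597 on the plus strand for Tlr9, all on GRCm38.p6.
Tlr2: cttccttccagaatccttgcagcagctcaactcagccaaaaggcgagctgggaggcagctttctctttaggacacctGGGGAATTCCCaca
Tlr13: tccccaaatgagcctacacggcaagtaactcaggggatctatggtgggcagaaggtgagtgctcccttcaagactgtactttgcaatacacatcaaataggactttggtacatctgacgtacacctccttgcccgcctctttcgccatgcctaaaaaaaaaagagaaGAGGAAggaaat
Myd88: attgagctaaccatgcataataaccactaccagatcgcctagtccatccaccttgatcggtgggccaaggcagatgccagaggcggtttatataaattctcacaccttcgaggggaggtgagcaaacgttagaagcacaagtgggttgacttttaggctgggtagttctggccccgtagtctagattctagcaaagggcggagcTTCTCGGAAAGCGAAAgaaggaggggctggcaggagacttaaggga
Tlr9: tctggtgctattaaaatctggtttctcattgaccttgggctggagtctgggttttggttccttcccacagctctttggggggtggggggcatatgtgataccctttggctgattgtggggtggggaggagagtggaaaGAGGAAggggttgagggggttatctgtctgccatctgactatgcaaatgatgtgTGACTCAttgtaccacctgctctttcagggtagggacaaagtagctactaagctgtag

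In the Tlr2 sequence the capitals cover 2 overlapping kappa B matches that begin at positions -173 and -172 from the start. In Myd88 they cover a STAT match at -46 that overlaps an ISRE match at -40. The PU.1 core lay at -83 in Tlr13 and at -112 in Tlr9, and the AP-1 site of Tlr9 at -58. A match describes the letters only and does not show that a factor is bound there.

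Levels of different genes were compared per length, as the deposited FPKM. In sham, Tlr3 had the highest level at 2.94 ± 0.201 FPKM and lay above Myd88 in every library. Myd88, Cd14 and Tlr7 followed at 2.46, 1.84 and 1.64 FPKM, with neighbours overlapping. Below them came Tlr13 at 0.807, Tlr4 at 0.656, Tlr9 at 0.472, Tlr2 at 0.465, Tlr6 at 0.312 and Tlr1 at 0.178 FPKM. From Tlr13 down, each gene overlapped the next in the order. Tlr7 lay above Tlr13 in every library.

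In I/R the order was led by Cd14 at 78.5 ± 46.6 FPKM (SD, n = 3), above Myd88 in every library. Myd88, at 12.2 FPKM, overlapped Tlr13 at 8.80, which overlapped Tlr7 at 7.43. Tlr2 at 5.26, Tlr4 at 4.08, Tlr3 at 3.31, Tlr1 at 2.85 and Tlr6 at 1.71 FPKM each overlapped a neighbour. Tlr9 was last at 0.346 FPKM, below Tlr6 in every library. By mean FPKM, Tlr3 thus stood first among these genes in sham and below 6 of them in I/R. Its I/R libraries overlapped those of Tlr2 and Tlr4, and its own level did not pass the test for a change.

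These orders rest on the gene length used. For 7 of the 10 genes the deposited FPKM implied a length shorter than the one listed in the table, between 43.6% of it for Tlr4 and 95.7% for Tlr3. For Tlr2, Tlr9 and Cd14 the lengths agreed. On the listed lengths Tlr3 was again first in sham and Cd14 again first in I/R. Tlr2 then stood above Tlr13 in I/R, at 5.26 against 4.53 counts per kilobase scaled to the library total. On that scale Tlr3 ranked 6 in I/R at 3.17, above Tlr1 at 1.97, which it overlapped, and Tlr4 at 1.78.

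**Figure D2:**
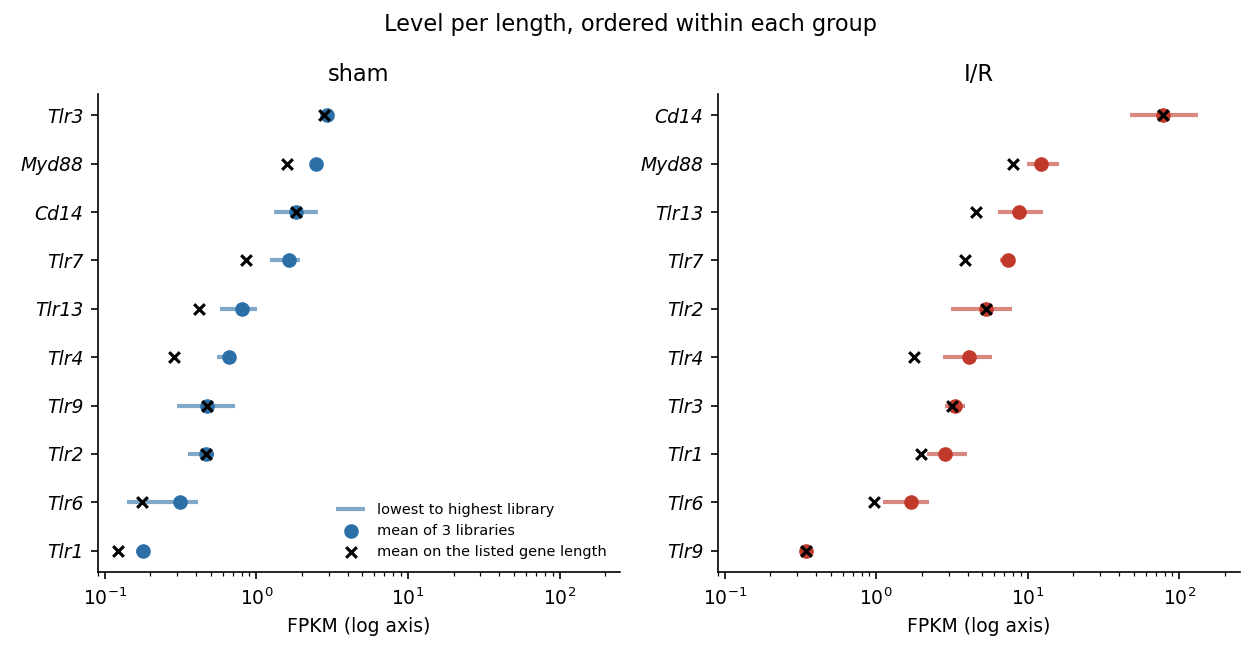
Mean level per length (dots) with the range over 3 libraries (lines) on a log axis in deposited FPKM, ordered within sham and within I/R. Crosses give the mean when counts are divided by the listed gene length. Tlr3 leads in sham at 2.94 FPKM, and Cd14 leads in I/R at 78.5 FPKM.

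Microglia and macrophages are known as main carriers of these receptors, so their marker RNA is given beside the changes. In bulk tissue, more or fewer cells of a type and more or less RNA per cell cannot be told apart. A list of 10 markers shared by microglia and macrophages summed to 555 to 812 CPM in I/R and 247 to 264 CPM in sham, a ratio of means of 2.53. Of 9 markers tested, 8 rose. The remaining marker of the list, Itgam, was listed at 0 in every library. Homeostatic microglia genes summed to 258 to 383 CPM in I/R and 232 to 257 CPM in sham, with 3 of 10 higher and 4 lower.

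The summed markers of monocytes, border macrophages, neutrophils and lymphocytes were each higher in every I/R library than in any sham library. Monocyte markers summed to 160 to 307 CPM in I/R and 96.3 to 106 CPM in sham. Of these, 4 of 5 tested rose and 4 of the 9 found were too scarce to be tested. The monocyte sum includes Fn1, a matrix gene that is also on the list of ligands below. Border macrophage markers summed to 35.3 to 66.3 CPM and 11.7 to 14.8 CPM, and 5 of 7 rose. Neutrophil markers summed to 43.7, 12.6 and 12.3 CPM in I/R replicates 1, 2 and 3 and to 5.70 to 7.20 CPM in sham. Of these, 4 of 6 tested rose and 4 of 10 were too scarce to be tested. Among defining markers, Cxcr2 of neutrophils and Plac8 of monocytes had 0 counts in every sham library, and Ly6g of neutrophils had at most 1 count in any library. Lymphocyte markers summed to 3.68 to 4.31 CPM in I/R and 0.959 to 2.74 CPM in sham, 1 of 2 tested rose and 5 of 7 were too scarce to be tested, and the T cell marker Cd3e had at most 2 counts in any library. Endothelial markers summed to 335 to 502 CPM in I/R and 245 to 249 CPM in sham, and 5 of 6 rose and 1 fell. Astrocyte markers summed to 4354 to 4629 CPM in I/R and 4390 to 4737 CPM in sham, with 2 of 7 higher and 3 lower. The part of each cell type in the receptor changes was not tested.

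Set against the summed microglia and macrophage markers of the same library, 7 of the 10 genes lay higher in every I/R library than in every sham library. The share of all genes tested that did so on this scale was not computed, so this count has no background beside it. The log2 change relative to this sum was 3.75 for Cd14, 2.38 for Tlr1, 1.85 for Tlr2, 1.85 for Tlr13, 1.01 for Tlr4, 0.97 for Tlr6 and 0.71 for Myd88. For each of these the exact two-sided permutation test gave p = 0.1, the smallest that 3 against 3 libraries allow, and nominal significance is out of reach in this design. Tlr7, at 0.63, overlapped between the groups (exact permutation p = 0.2). Tlr3 and Tlr9 lay lower in every I/R library, by log2 changes of -1.41 and -1.92. The marker sum itself rose, at a ratio of means of 2.53, so a gene with an unchanged level falls on this scale.

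**Figure D3:**
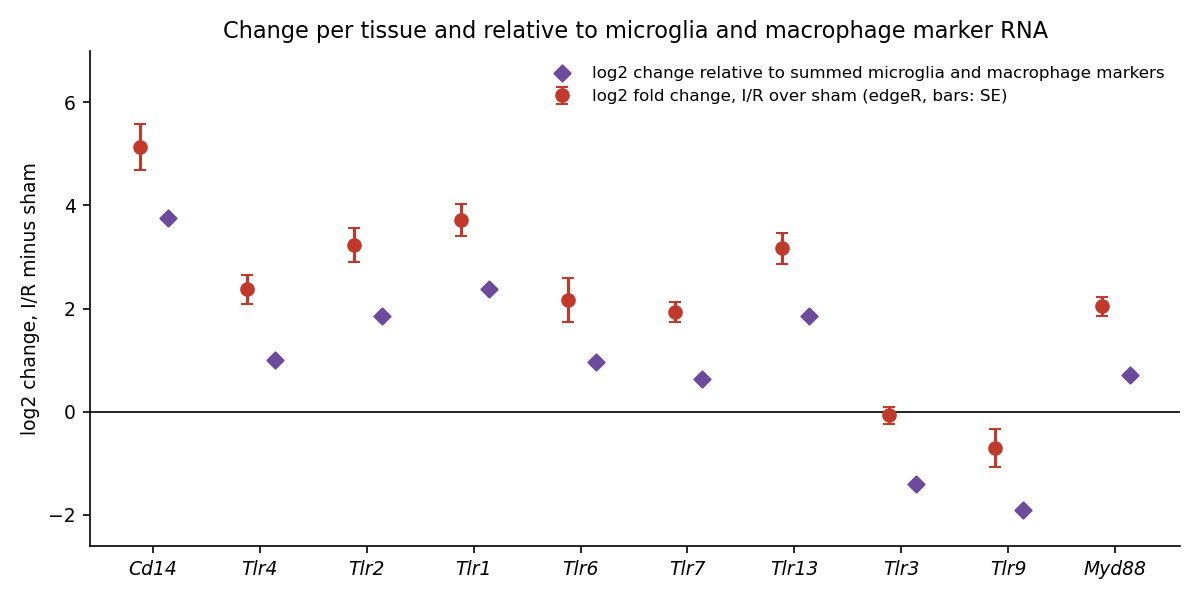
Circles give the log2 fold change of each gene in I/R over sham with its SE, and diamonds the log2 change relative to the summed microglia and macrophage markers of the same library. Every diamond lies below its circle because the marker sum in the denominator rose, and Cd14 has the highest of both, at 5.13 and 3.75.

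The balance between receptors that act together was read from count ratios within a library, which do not depend on the scaling. These 8 pairs were chosen with the results known, so their values are descriptions. The ratio of Cd14 to Tlr4 counts was 3.35, 2.64 and 1.57 in the sham libraries against 20.2, 13.5 and 15.2 after I/R, a log2 change of 2.74. The ratio of Ly96, the secreted partner of Tlr4, to Tlr4 overlapped between the groups, with a log2 change of -0.19. Thus Cd14 counts moved further than those of Tlr4, whereas for Ly96 no shift beyond the spread was seen.

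Among the Tlr2 pairs, the ratio of Tlr1 to Tlr2 was 0.227, 0.271 and 0.203 in the sham libraries against 0.304, 0.415 and 0.299 after I/R, a log2 change of 0.53. The ratio of Tlr6 to Tlr2 overlapped between the groups, with sham replicate 3 the lowest library, at a log2 change of -0.88. Tlr1 exceeded Tlr6 in every I/R library, at ratios of 1.71, 1.85 and 1.27, and in 1 of 3 sham libraries, at 0.455, 0.394 and 1.2, subject to the stretches that the genes share. The ratio of Tlr4 to Tlr2 was lower in every I/R library, at 0.434, 0.696 and 0.339, than in any sham library, at 0.773, 0.917 and 0.831, a log2 change of -0.84.

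Among the endosomal receptors, Tlr7 counts were 1.67, 1.44 and 3.29 times those of Tlr13 in sham and 0.604, 1.0 and 1.02 times in I/R, a log2 change of -1.22. Tlr3 counts were 3.53, 4.49 and 3.24 times those of Tlr7 in sham and 0.747, 0.998 and 1.01 times in I/R, a log2 change of -2.03. In both pairs the groups did not overlap. Where they did not overlap, the exact two-sided permutation p was 0.1 for each pair, before adjustment over the 8 pairs.

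**Figure D4:**
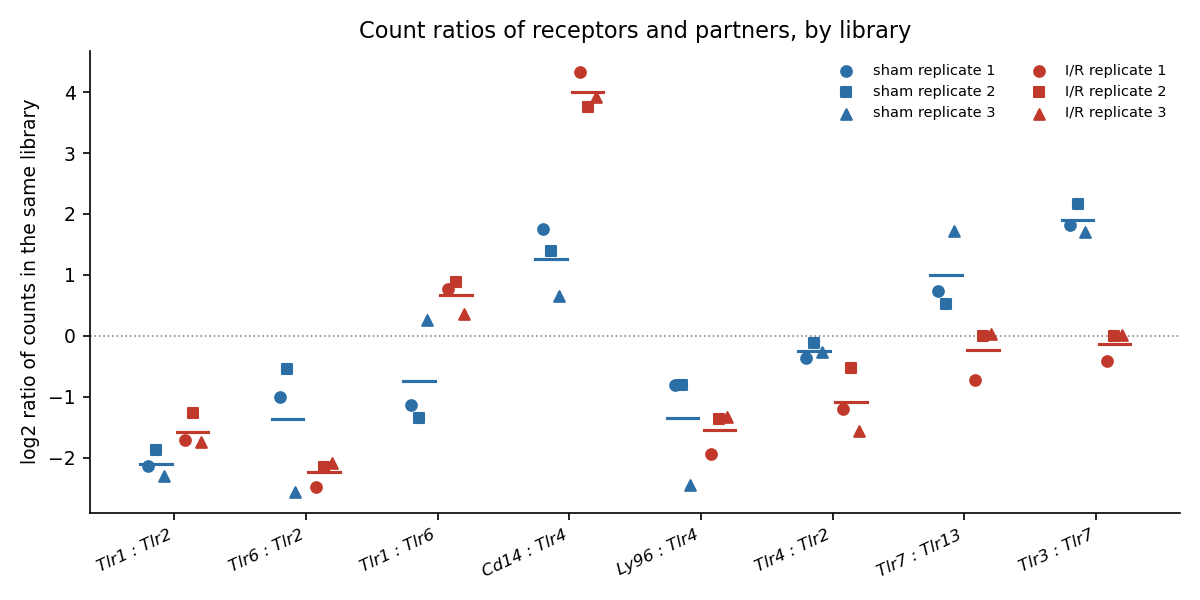
Each point is the log2 ratio of the counts of 2 genes in a library, with a short line at the group mean, for I/R in red and sham in blue. The Cd14 to Tlr4 ratio shifts up and the Tlr3 to Tlr7 ratio shifts down, whereas Tlr6 to Tlr2 and Ly96 to Tlr4 overlap.

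Genes with the pattern most like those of Cd14 and Tlr1, the members with the largest change, were sought over the 6 libraries, as the smallest root mean square difference of log2 CPM after centring on the sham mean. For Cd14 these were Socs3 at 0.198 and Adam8 at 0.280. Ereg came next, but it had 0 counts in every sham library, so its distance rests on the 0.5 counts added before the logarithm and its likeness is not measured. Socs3 is a feedback inhibitor of cytokine signalling, with 155, 128 and 63 reads in sham against 7021, 3719 and 3084 after I/R. For Tlr1 these were Serpina3n at 0.0449, Cdkn1a at 0.0909 and Tm4sf1 at 0.177. Serpina3n, a secreted protease inhibitor made by reactive astrocytes, had 2395, 2148 and 1946 reads in sham against 48113, 23015 and 25296 after I/R. Cdkn1a is an inhibitor of the cell cycle.

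The rest of the pathway was described by role. Of 101 listed genes, 99 were in the table under the listed name or its synonym and 91 were tested, of which 57 rose, 8 fell and 26 were not called. Each count may be read against the 21.8% and 19.9% of all genes called higher and lower. In each list, up to 4 called genes of largest change and up to 2 abundant genes that were not called are named. Genes that fell are also named, with 1 exception, chosen after their values were seen.

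Other Toll-like receptors were scarce. Tlr5 had 26, 10 and 21 reads in sham against 8, 34 and 7 after I/R and was not called, and neither was Tlr12, with 15, 30 and 12 against 17, 4 and 16. Tlr8, a further endosomal RNA receptor, had 2, 2 and 0 reads in sham against 24, 12 and 4 after I/R, too few to pass the filter on low counts. It was called higher without that filter (edgeR adjusted p = 0.0456) and without I/R replicate 3 (edgeR adjusted p = 0.0206). Against a floor of 3 counts per library, the I/R level was at least 3.90-fold higher, and at least 2.52-fold without I/R replicate 1. Tlr11 had 1 count in all.

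Receptor partners and chaperones rose in 7 of 12 and fell in 1, with a median log2 fold change of 0.54. Ly96, which binds lipopolysaccharide together with Tlr4, had 29, 25 and 9 reads in sham against 106, 95 and 73 after I/R, a change of 2.0 ± 0.39 on the log2 scale (SE, edgeR adjusted p = 0.00546). Cd180, a Toll-like receptor relative of B cells and macrophages, and the scavenger receptor Cd36 rose by log2 fold changes of 2.58 and 2.11. The largest change in the list was that of Lrrc32, at 3.55, a leucine-rich repeat protein that holds latent TGF-beta. That is not the role of a Toll-like receptor partner or chaperone, although the list's counts include it. Lbp, the plasma protein that delivers lipopolysaccharide to Cd14, had 216, 823 and 932 reads in sham against 1185, 1153 and 405 after I/R and was not called, although it was with the choroid plexus sum as a covariate (0.54, edgeR adjusted p = 0.0295). The endosomal transporter Slc15a4 was not called. Cnpy3, a chaperone of Toll-like receptors, fell by 0.36 on the log2 scale (edgeR adjusted p = 0.0178). This call was lost with library size only (-0.10, edgeR adjusted p = 0.471), with limma on FPKM, with a replicate block (edgeR adjusted p = 0.0577) and without sham replicate 2 or 3 (edgeR adjusted p = 0.0701 and 0.0651).

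Of 22 adaptors, kinases and ubiquitin ligases, 9 rose, 2 fell and 11 were not called, with a median log2 fold change of 0.25. The largest rises were in Pik3ap1 (2.28), Btk (2.01), Map3k8 (1.80) and Irak4 (1.66), the last being the kinase that joins Myd88 first. Tab2 and Map3k7, parts of the TAK1 complex, had log2 fold changes of 0.26 and 0.21 and were not called (edgeR adjusted p = 0.0286 and 0.0822). Tab2 missed the call only by its change of 1.197-fold, against the 1.2 asked for, and was called higher in 6 of 17 alternatives. With library size only both were called (0.52 and 0.46, edgeR adjusted p = 0.00234 and 0.0031). Sarm1, an adaptor known for its part in axon degeneration, and Traf3 fell by 0.73 and 0.54 on the log2 scale. Of the adaptors beside Myd88, Tirap had 111, 122 and 114 reads in sham against 487, 361 and 299 after I/R and rose, whereas Ticam1, the adaptor of Tlr3, had 182, 324 and 241 against 382, 288 and 304 and was not called. These last genes were named for their part in the pathway after their values were seen.

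Inhibitors of the pathway rose in 7 of 17 and fell in 3, with a median of 0.67. Irak3, a kinase relative that blocks signalling downstream of Myd88, had 39, 26 and 16 reads in sham against 247, 112 and 78 after I/R, a change of 2.27 ± 0.46 on the log2 scale (SE, edgeR adjusted p = 0.00619). Atf3, a repressor and stress response factor, rose by 6.43, Lilrb4a, an inhibitory receptor of myeloid cells, by 7.25, and the ribonuclease Zc3h12a by 1.94 on the log2 scale. Lilrb4a has a near-identical neighbour gene, so its count is uncertain. It was not tested when at least 10 counts were asked for in every library. In the 16 alternatives that tested it, its log2 fold change ran from 4.32 to 7.53, so the size of its change is uncertain too. Tollip and Rnf216, both abundant, had log2 fold changes of -0.14 and -0.08 and were not called. Cyld, Tyro3 and Mertk fell by 0.93, 0.41 and 0.37 on the log2 scale. The calls of Tyro3 and Mertk were lost with library size only (edgeR adjusted p = 0.285 and 0.453), with limma on FPKM and without I/R replicate 2 (edgeR adjusted p = 0.0564 and 0.0513). Without sham replicate 2 that of Tyro3 was lost (0.0613), and without sham replicate 3 (0.0791) or with a replicate block (0.0569) that of Mertk.

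All 10 transcription factors of the list rose, with a median of 1.22, although Irf3 was not called without sham replicate 2 or 3 (edgeR adjusted p = 0.0507 and 0.0736). The changes were largest for Fos at 3.70, Irf7 at 2.35, Spi1 at 2.08 and Irf5 at 1.39. Spi1, which encodes PU.1, the lineage factor of microglia and macrophages, had 141, 111 and 152 reads in sham against 959, 467 and 512 after I/R. Irf7 and Irf5 are the interferon regulatory factors that act downstream of Tlr7 and Tlr9.

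Of the genes listed as ligands that act after damage, 10 of 13 tested rose and 2 fell, with a median of 1.02. Saa3, near 0 in sham, passed the count filter only through its I/R counts, so these values rest in part on it. With at least 10 counts in every library, 10 were left to test, of which 7 rose and 2 fell. Saa3, an acute phase protein, had 0, 1 and 1 reads in sham against 1511, 241 and 259 after I/R, at least 192-fold higher against the floor and at least 78.9-fold without I/R replicate 1. S100a8 and S100a9, alarmins of neutrophils that are also on the neutrophil list above, rose by log2 fold changes of 4.66 and 3.78, and in both I/R replicate 1 held most of the I/R counts. Without that library their log2 fold changes were 3.53 and 2.61, and without sham replicate 1 they were 5.44 and 4.43. S100a9 was not called without sham replicate 2 (edgeR adjusted p = 0.0538) or without the filter on low counts (edgeR adjusted p = 0.0828). The matrix protein Tnc rose by 4.39. Hmgb1, a nuclear protein that acts as an alarmin once released, had 5730, 5683 and 5049 reads in sham against 5249, 6653 and 6561 after I/R and was not called. Eda, listed by its symbol, fell by 1.17 on the log2 scale. This gene encodes ectodysplasin A, whereas the ligand called EDA is a domain of fibronectin, the product of Fn1. Eda is thus not such a ligand, although the counts and median of the list and the pathway totals include it.

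Known target genes rose in 14 of 15 tested, with a median of 3.03 that was the highest of the pathway lists. A further 3 were too scarce to be tested. Genes near 0 in sham, such as Il6 and Cxcl2, passed the count filter only through their I/R counts. The count and the median thus rest in part on genes tested because they were high in I/R. With at least 10 counts in every library, 5 were left to test and 5 rose. Il6 had 1, 0 and 0 reads in sham against 451, 239 and 224 after I/R, at least 90.3-fold higher against the floor. Cxcl2, which attracts neutrophils, had 0 reads in each sham library against 483, 165 and 53 after I/R, at least 67.5-fold higher and at least 34.4-fold without I/R replicate 1, and it was not called without the filter on low counts (edgeR adjusted p = 0.0692). Ccl2, which attracts monocytes, had 73, 9 and 0 reads in sham against 2589, 1172 and 1015 after I/R and rose by 5.70 on the log2 scale. Tnf, with 4, 1 and 0 reads against 128, 42 and 129, rose by 5.66. The size of both changes depends on sham replicate 1. Without it both were still called higher, and the log2 fold changes were 8.24 and 7.17. Cd80, a costimulatory protein, had 23, 4 and 2 reads in sham against 58, 24 and 33 after I/R and was not called, although without sham replicate 1 it was (3.45 on the log2 scale, edgeR adjusted p = 0.013).

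**Figure D5:**
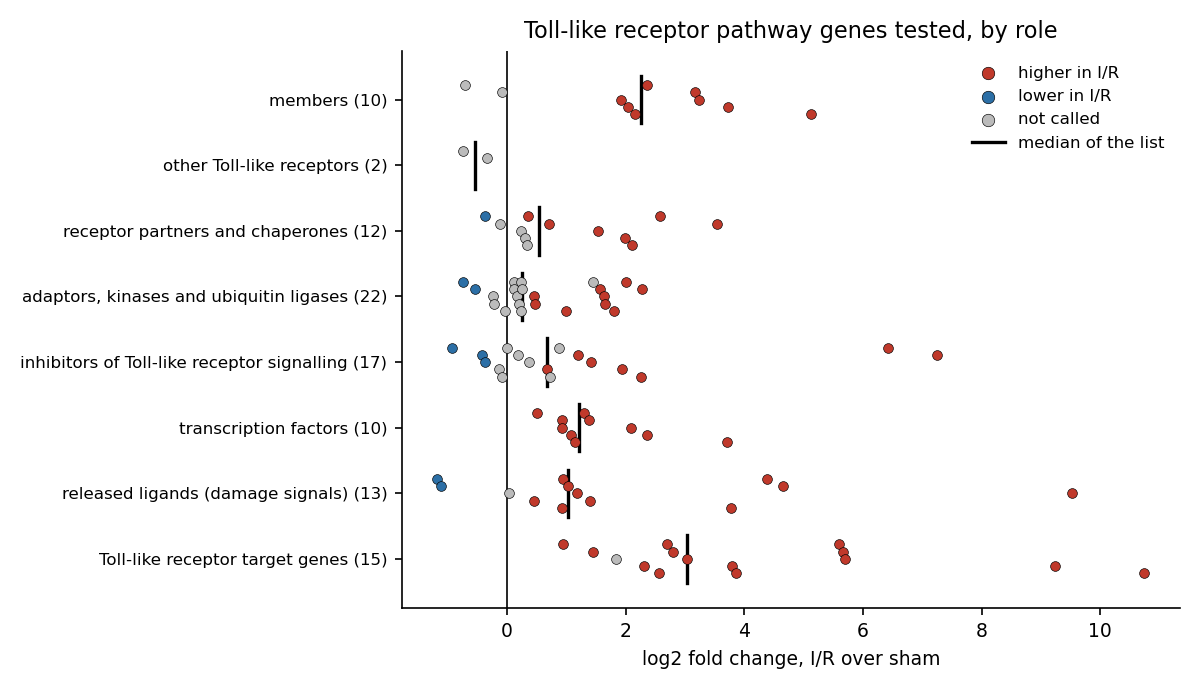
Each point is the log2 fold change of a tested gene in I/R over sham, with the number tested beside the name of each list and a line at the list's median. The values drawn for Saa3, Il6 and Cxcl2, which were at the floor in sham, are fitted and are not bounds. The median is 2.27 for the 10 receptors, Cd14 and Myd88, 0.25 for adaptors and kinases and 3.03 for target genes. Some target genes, and Saa3 among the ligands, passed the count filter only through their I/R counts.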

How the data were processed

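The submitters' processing notes name Bowtie 0.12.2 and build mm8, whereas the study's methods name TopHat2, an Ensembl genome and HTSeq. The deposited table holds raw counts per gene by the authors and FPKM, which the authors scaled to length and library size, on BALB/cJ identifiers. Its 4 split lines were rejoined. The authors' columns of fold changes and p-values were not used, and neither was a mean per group. Treatment of reads that fit several places is not given in the sources used here. Reads counted against another strain's annotation, and HTSeq's usual loss of shared reads, can lower counts. The test was edgeR's (version 4.0.16, R 4.3.3, filterByExpr, TMM, robust quasi-likelihood F-test, no covariates, Benjamini-Hochberg). SE was the size of the log2 fold change divided by the root of F. CPM used TMM-scaled library sizes, and the floor was 3 counts per library. Alternatives used DESeq2 1.42.0 and limma 3.58.1. Floors cover counting error only. The members and gene lists were chosen with earlier results of these data known. All members were named, and of each list up to 4 called genes with the largest change and up to 2 abundant genes not called. The values of 1 listed gene are not reported here.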

Additional observations from a re-analysis of the deposited data

How the results depend on the processing

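In all 19 alternatives, 8 of the 10 genes were called higher and 0 lower, and their direction never turned; among these the fold changes of Cd14 ran from 4.59 to 5.43 and those of Tlr6 from 1.03 to 2.43 on the log2 scale. Tlr3 and Tlr9 were called in none. The sign of Tlr3 turned with library size only (0.1737), with limma on log2 FPKM plus 1 (0.1258) or plus 0.1 (0.1595), and without I/R replicate 1 (0.0502); leaving out a library gave -0.25 to 0.05. A fold change over 2 left 2760 genes called in place of 7756. With library size only, 6334 genes were called higher and 2027 lower. The labels do not say whether the replicate numbers pair the samples. Deviations of same-numbered libraries correlated at -0.0967, 0.0556 and -0.184. These values cannot exclude pairing or a shared batch, since differences in makeup, such as choroid plexus RNA, fall on unlike replicate numbers. With a replicate block 6332 genes were called, 8 of the 10 among them. Of the pathway genes, 45 of the 57 that rose and 4 of the 8 that fell kept their call in each of 17 alternatives of scaling, filter, test or libraries that tested them. By list, 5 of 12 receptor partners and chaperones were called without sham replicate 3 or with a fold change over 2, against 8. Adaptors and kinases went from 11 called to 6 with a fold change over 2 and to 17 with log2 FPKM plus 0.1, inhibitors from 10 to 6 with a fold change over 2, and target genes from 14 to 5 with at least 10 counts in every library, which left 5 to test. Of the other Toll-like receptors, 1 was called, against 0, without the count filter or without I/R replicate 3. The genes scarce in sham, such as Tlr1 with 12 to 15 counts, are limited by depth. With 3 pools a group, the tests set the difference between groups against the spread between pools, not between single mice.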
